A study of Mus musculus with 12 samples.

Results

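The genes described here encode 10 adhesion molecules of the vessel wall through which blood-borne T-cell progenitors settle in the thymus: Selp, Sele, Vcam1, Icam1, Icam2, Madcam1, Glycam1, Cd34, Podxl and Bst1. They were taken by name as a list, 10 of the 23306 gene symbols of the table, and all 10 had enough reads to be tested, as had 14792 genes in all. Polyadenylated RNA was measured in cells sorted from the thymus of C57 BL6 mice that carry a KitL-tomato reporter, and the red td-tomato signal was used in the sort. All groups came from reporter mice and from living cells without lineage markers (Lin- Dapi-). The groups were tomato+ vascular endothelial cells (VEC; CD31+ EpCAM-), tomato- VEC of the same gate, tomato+ cortical epithelial cells (cTEC; EpCAM+ CD31- Ly51+ UEA1-) and tomato- medullary epithelial cells (mTEC; EpCAM+ CD31- UEA1+ Ly51-), each with 3 libraries. The sources used here do not give the reporter construct, the age of the mice or any pooling, and nothing says that libraries came from separate mice, so p-values measure the spread between these samples, which may be technical.

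A leukocyte leaves the blood in steps. Selectins on the endothelium catch sugar-bearing ligands such as PSGL-1 and let the cell roll. Proteins of the immunoglobulin superfamily (VCAM-1, ICAM-1, ICAM-2, MAdCAM-1) then hold it by its integrins. Sialomucins (GlyCAM-1, CD34, podocalyxin) are heavily sugared proteins that can carry sugar ligands for leukocytes on specialised venules, and podocalyxin is also known as an anti-adhesive coat. In the mouse thymus, P-selectin, VCAM-1 and ICAM-1 are known to take part in the entry of progenitors across venules near the border of cortex and medulla.

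The libraries had total counts of 8388869 to 11807130. Levels are given as CPM (read counts scaled to a common library size), with library sizes adjusted by the trimmed mean of M-values (TMM). Kitl itself averaged 1043 ± 435.5 CPM in tomato+ VEC, against 438.3 ± 40.7 CPM in tomato- VEC, and in cTEC 222.2 ± 35.3 CPM, while mTEC had 22.0 ± 15.9 CPM (SD, n = 3 each). The 8 endothelial markers summed to 4884 to 6561 CPM in tomato+ VEC, against 4916 to 5825 CPM in tomato- VEC, and to 8.31 to 277.8 CPM in cTEC, against 15.2 to 37.3 CPM in mTEC, and all 8 had counts in each group. The 6 epithelial markers summed to at most 1.56 CPM in VEC, with Epcam at 0 in tomato+ VEC, against 2744 to 4118 CPM in cTEC and mTEC. The markers went with the label of each sort, but cTEC replicate 2 stood apart: its endothelial markers reached 4.88% of the mean VEC sum, against 0.146% to 0.656% in the other epithelial libraries. Markers of veins and post-capillary venules (4 of 5 found) summed to 266.6 to 646.1 CPM in tomato+ VEC, against 4233 to 5786 in tomato- VEC. Arterial markers (6 of 6) went the other way, with 882.4 to 1001 CPM in tomato+ VEC, against 164.9 to 203.9 in tomato- VEC. Lymphatic markers (5 of 5) summed to 49.0 to 61.6 CPM in tomato+ VEC, with Lyve1 at 0, against 101.8 to 185.1 CPM in tomato- VEC. Not every marker followed its sum: the venous Ephb4, the arterial Dll4 and the lymphatic Prox1, Reln and Flt4 overlapped between these groups. Flt4 had 53.2, 48.3 and 61.4 CPM in tomato+ VEC and 17.7, 24.0 and 72.7 CPM in tomato- VEC. The other markers of these lists did not overlap. The endothelial comparison is therefore also one between populations that differ in most of these vessel markers, and in these bulk samples fewer cells of a type and less RNA per cell cannot be told apart.

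Per length, as RPKM (read counts scaled by gene length and library total), the molecules together reached 1933 ± 201.8 in tomato+ VEC, against 2969 ± 558.5 in tomato- VEC, and 378.7 ± 39.5 in cTEC, against 430.2 ± 45.6 in mTEC (SD, n = 3 each). Cd34 ranked first in both endothelial groups, at 949.7 ± 193.8 RPKM in tomato+ VEC, against 1082 ± 68.4 in tomato- VEC. In tomato+ VEC it was followed by Icam2 (584.5 ± 73.6 RPKM), Icam1 (152.5 ± 22.7) and Vcam1 (143.6 ± 70.5). In tomato- VEC it was followed by Vcam1 (420.5 ± 159.9 RPKM), Icam2 (408.0 ± 26.0), Selp (344.6 ± 76.7) and Glycam1 (316.6 ± 520.5, nearly all from 1 library). Both epithelial groups had the same leading pair: Icam1 at 181.2 ± 9.74 and Vcam1 at 152.7 ± 18.2 RPKM in cTEC, and Icam1 at 203.3 ± 36.5 and Vcam1 at 171.1 ± 15.5 RPKM in mTEC. That pair made up 15.3% of the summed RPKM in tomato+ VEC, against 21.1% in tomato- VEC, but 88.2% in cTEC and 87.0% in mTEC. Cd34 with Icam2 made up 79.4% in tomato+ VEC, against 50.2% in tomato- VEC, and 10.9% in cTEC and 1.88% in mTEC.

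**Figure D1:**
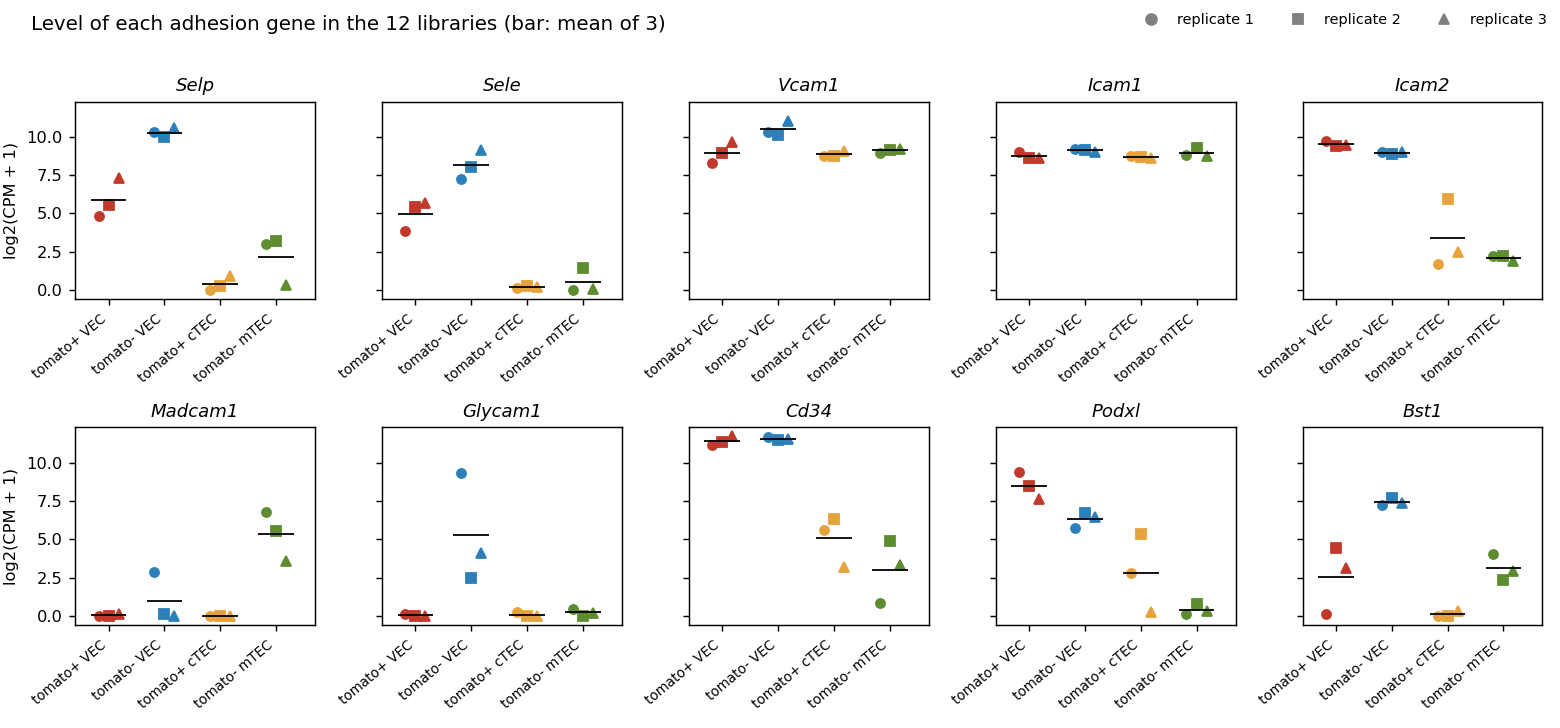
Levels of the 10 adhesion genes in each of the 12 libraries, as log2(CPM + 1), by group; symbols are the replicates and bars the mean of 3. Vcam1 and Icam1 are high in all 12 libraries, while Selp, Sele, Icam2, Cd34 and Podxl are higher in each endothelial library than in any epithelial one.

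**Figure D2:**
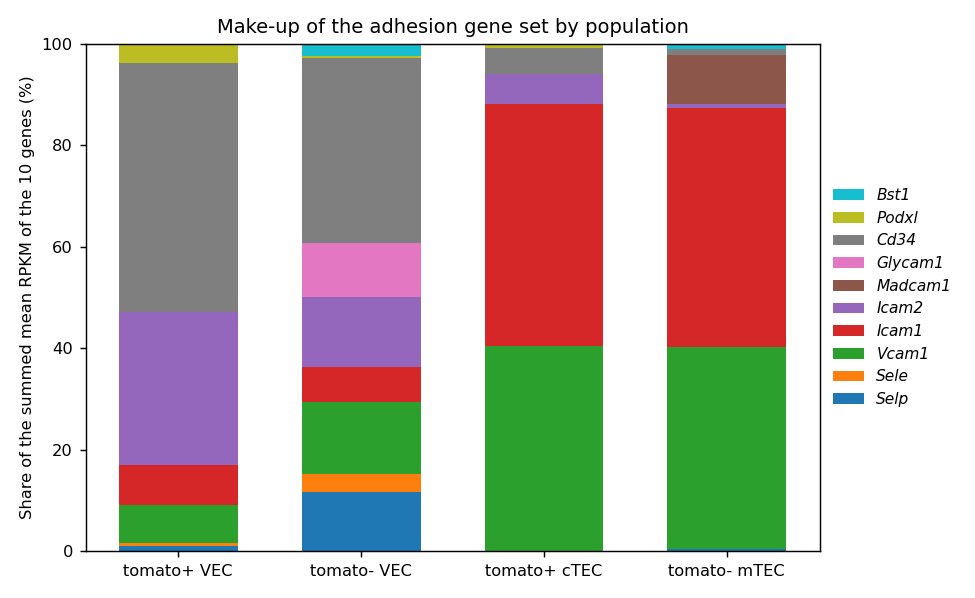
Share (%) of each gene in the summed mean RPKM of the 10 genes, as a stacked bar per group. Vcam1 with Icam1 holds 15.3% in tomato+ VEC and 21.1% in tomato- VEC, against 88.2% in cTEC and 87.0% in mTEC.

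Promoters are shown for 5 of the 6 members found in the promoter table, chosen to set unlike patterns beside a like pair: Selp and Sele, both lower in each tomato+ VEC library than in any tomato- VEC library, Icam1, nearly even in all libraries, Madcam1, highest in mTEC, and Glycam1, highest in tomato- VEC. The sequences are from RefSeq on GRCm38.p6 (the counts were made on mm9), which gave 6 of the 10 genes, from 250 bases before to 50 after the start of the gene. They are Selp at chr1:164115014-164115313 (plus strand), Sele at chr1:164047984-164048283 (plus), Icam1 at chr9:21015690-21015989 (plus), Madcam1 at chr10:79664309-79664608 (plus) and Glycam1 at chr15:103565032-103565331 (minus). Capitals mark matches, on either strand, to GGG followed by 5 free bases and CC, a loose form of the site of the transcription factor NF-kB.
Selp: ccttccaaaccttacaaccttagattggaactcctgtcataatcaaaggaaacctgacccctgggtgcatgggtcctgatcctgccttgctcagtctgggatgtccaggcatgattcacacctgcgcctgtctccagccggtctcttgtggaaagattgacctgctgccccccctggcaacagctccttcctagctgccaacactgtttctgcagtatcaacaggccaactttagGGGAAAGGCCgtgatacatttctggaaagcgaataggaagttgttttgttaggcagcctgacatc
Sele: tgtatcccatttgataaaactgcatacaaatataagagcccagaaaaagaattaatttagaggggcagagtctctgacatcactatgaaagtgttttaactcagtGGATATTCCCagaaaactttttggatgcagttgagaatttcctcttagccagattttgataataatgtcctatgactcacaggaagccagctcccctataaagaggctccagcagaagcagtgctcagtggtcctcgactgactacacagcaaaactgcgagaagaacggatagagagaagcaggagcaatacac
Icam1: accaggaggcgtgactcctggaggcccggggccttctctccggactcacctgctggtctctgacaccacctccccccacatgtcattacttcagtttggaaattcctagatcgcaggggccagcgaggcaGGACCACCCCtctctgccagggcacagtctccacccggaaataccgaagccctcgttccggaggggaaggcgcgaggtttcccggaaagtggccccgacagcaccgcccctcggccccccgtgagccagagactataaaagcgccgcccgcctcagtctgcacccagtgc
Madcam1: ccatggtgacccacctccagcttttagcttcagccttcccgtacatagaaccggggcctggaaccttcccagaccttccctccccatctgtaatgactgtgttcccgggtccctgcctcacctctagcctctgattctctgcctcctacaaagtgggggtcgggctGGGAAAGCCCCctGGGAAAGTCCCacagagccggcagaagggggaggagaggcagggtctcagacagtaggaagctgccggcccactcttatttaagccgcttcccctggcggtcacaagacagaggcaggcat
Glycam1: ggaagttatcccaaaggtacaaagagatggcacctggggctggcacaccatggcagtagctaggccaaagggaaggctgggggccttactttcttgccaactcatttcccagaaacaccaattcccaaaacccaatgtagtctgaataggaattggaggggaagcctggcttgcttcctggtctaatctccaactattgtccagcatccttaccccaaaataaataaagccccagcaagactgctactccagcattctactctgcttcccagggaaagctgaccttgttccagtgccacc
The stricter NF-kB consensus of 10 letters occurred at 2 places in the Madcam1 promoter, at -83 to -74 and -70 to -61 from the start, and at none in the other 5 promoters (Cd34 included). Of all 32851 promoters in the table, 4.51% held it. The loose form overlaps the consensus and occurred in 50.8% of them. Among the 6 it had 1 match in Selp, 1 in Sele, 1 in Icam1, 4 overlapping ones in Madcam1, 2 in Cd34 and 0 in Glycam1. These are letter matches only.

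Within the endothelium, Selp, Sele, Vcam1, Icam1, Glycam1 and Bst1 had lower values in every tomato+ VEC library than in any tomato- VEC library, and Icam2 and Podxl had higher ones. In edgeR's quasi-likelihood test with Benjamini-Hochberg adjustment over all tested genes (adjusted p under 0.05), 2 of the 10 were lower in tomato+ VEC (Vcam1, Glycam1), 0 higher and 8 did not pass. Of all tested genes 1.65% passed, 0.568% higher and 1.08% lower. The groups did not overlap for 6 members lower in tomato+ VEC, against 8.32% of all genes, and for 2 higher, against 7.46% (15.8% in either direction). At an unadjusted p under 0.05 there were 6 members, against 16.2% of all genes. The median log2 fold change was -2.35 over the 10 and 0.00 over all genes. The venous, arterial and lymphatic marker sums given above also differed between these groups, and their part in these values was not tested.

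Selp encodes P-selectin, which is stored in granules of endothelial cells and platelets and binds PSGL-1. It had 26.9, 45.3 and 156 CPM in tomato+ VEC, against 1270, 998.2 and 1488 CPM in tomato- VEC. The highest tomato+ library lay far below the lowest tomato- library. The log2 fold change was -4.04 ± 0.99 (SE), and the adjusted p of 0.0652 missed the threshold in edgeR. It passed with DESeq2 (adjusted p = 0.00131), with limma voom (adjusted p = 0.000739), with no low-count filter (0.0312), with only the 6 endothelial libraries (0.0309), without tomato+ VEC replicate 3 (0.0414) and without mTEC replicate 3 (0.0254). Under the other 13 of 19 alternatives it did not pass (adjusted p up to 0.158 in edgeR). The 5 platelet markers summed to 184.5 CPM in tomato- VEC replicate 1 and to 9.35 and 3.36 in replicates 2 and 3. Without that replicate 1 the log2 fold change of Selp was -4.01 (adjusted p = 0.121 in edgeR). The part of platelets in the Selp values was not tested.

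Sele encodes E-selectin, which endothelium makes on stimulation by inflammatory cytokines. Its levels were 13.7, 40.9 and 49.4 CPM in tomato+ VEC and 150.8, 260 and 553 CPM in tomato- VEC. The groups did not overlap, and the libraries of each spread more than 3-fold. The log2 fold change of -3.21 ± 0.87 (SE) did not pass in edgeR (adjusted p = 0.0902), but did with DESeq2 (adjusted p = 0.0110), limma voom (adjusted p = 0.0344) and without mTEC replicate 2 (adjusted p = 0.0283). Under the other 16 of 19 alternatives it did not pass (adjusted p up to 0.263 in edgeR).

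Vcam1 encodes the ligand of the integrin VLA-4. It fell to 309, 488 and 822 CPM in tomato+ VEC, against 1287, 1131 and 2092 CPM in tomato- VEC. The groups were apart, with a log2 fold change of -1.48 ± 0.33 (SE) and an adjusted p of 0.0490 in edgeR. This call is a narrow one. It was lost under 13 of 19 alternatives, among them relative log expression scaling (adjusted p = 0.0545), only the 6 endothelial libraries (0.151) and leaving out any of 11 of the 12 libraries, all but tomato+ VEC replicate 3 (up to 0.130). With DESeq2 (adjusted p = 0.00368) and limma voom (0.0129) it held.

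Icam1, encoding a ligand of the integrin LFA-1, had 508.5, 390.5 and 389.6 CPM in tomato+ VEC and 575.5, 562.6 and 521.8 CPM in tomato- VEC. The tomato+ libraries were the lower ones by a small margin (log2 -0.37 ± 0.20 SE, adjusted p = 0.396 in edgeR). Icam2, another LFA-1 ligand that endothelium and platelets carry without stimulation, had 856, 671 and 694 CPM in tomato+ VEC and 515, 464 and 503 CPM in tomato- VEC. Here the tomato+ libraries were the higher ones, and the log2 fold change of 0.58 ± 0.81 (SE) did not pass (adjusted p = 0.792 in edgeR). With only the 6 endothelial libraries it was 0.595 and did not pass either (adjusted p = 0.234 in edgeR). Madcam1, whose product binds the gut-homing integrin alpha4 beta7, was nearly absent from the endothelium, with 0, 0 and 0.107 CPM in tomato+ VEC and 6.35, 0.106 and 0 CPM in tomato- VEC. Nearly all of its endothelial counts lay in tomato- VEC replicate 1, and the ratio of 1 to 58 counts (56.5-fold, 95% counting interval 9.75 to 2269) did not pass (adjusted p = 0.236 in edgeR). Counting intervals here cover counting error only.

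Glycam1 encodes a secreted sialomucin of high endothelial venules. It had 1 count in all of tomato+ VEC (0.104, 0 and 0 CPM), against 5641, 43 and 145 counts in tomato- VEC (628, 4.57 and 16.3 CPM). Replicate 1 of tomato- VEC held nearly all of them, 137.5 times the CPM of replicate 2, though the other 2 also lay above every tomato+ library. The count ratio was 5677-fold lower in tomato+ VEC (95% counting interval 1019 to 224300), with an adjusted p of 0.0188 in edgeR. Without tomato- VEC replicate 1 it was 273-fold, from 1 count against 188 (counting interval 48.4 to 10830). Leaving out tomato+ VEC replicate 1, which held the 1 count, gave at least 1208-fold on the floor of 3 counts, and the other 4 leave-outs gave 3685-fold to 8598-fold. The gene passed the low-count filter through tomato- VEC alone. The call was lost with only the 6 endothelial libraries (adjusted p = 0.0812), without any tomato+ VEC library and without tomato- VEC replicate 1 (0.119). The same replicate was the one rich in platelet markers and in Madcam1, and their part in this value was not tested.

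Enzymes that build the sugar chains of such sialomucins were read beside it. Chst4, a sulfotransferase of high endothelial venules, had 73.8 CPM in tomato- VEC replicate 1 and 0.106 and 0.224 CPM in replicates 2 and 3, beside 1 count in all of tomato+ VEC, and was not tested because too few libraries passed the low-count filter. Fut7, the fucosyltransferase of sialyl Lewis X, had 0.104, 0 and 0 CPM in tomato+ VEC and 26.4, 11.8 and 0 CPM in tomato- VEC, and was likewise not tested. Gcnt1, which branches the core of O-linked sugars, had 0.416, 0 and 1.07 CPM in tomato+ VEC and 119.9, 123.7 and 16.3 CPM in tomato- VEC. It was lower in tomato+ VEC (log2 -7.38 ± 1.48 SE, adjusted p = 0.0272 in edgeR). Replicate 1 was thus the library highest in Glycam1, Chst4 and Fut7, but for Gcnt1 replicates 1 and 2 were alike.

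**Figure D3:**
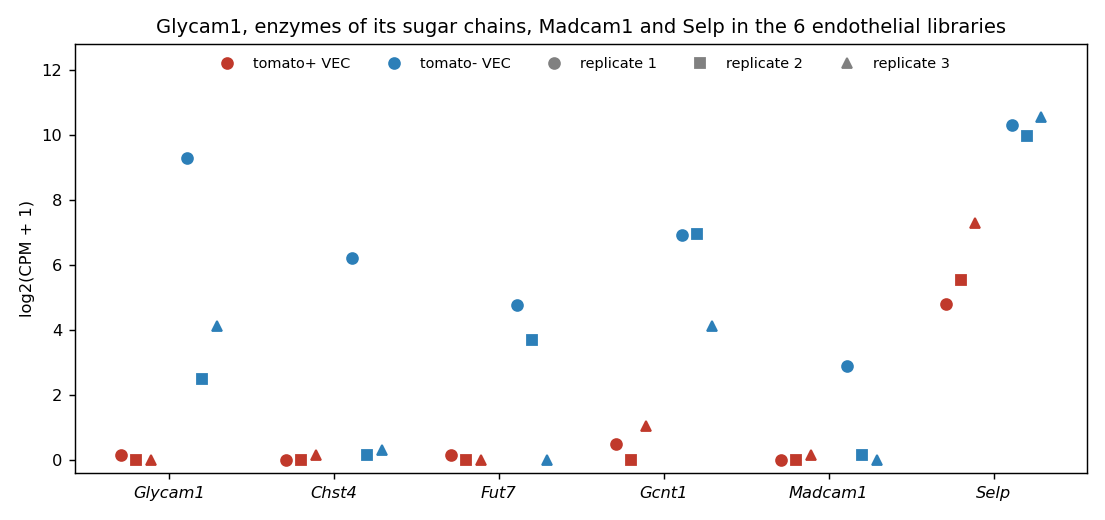
Glycam1, enzymes of its sugar chains, Madcam1 and Selp in the 6 endothelial libraries, as log2(CPM + 1), with tomato+ VEC in red and tomato- VEC in blue and a symbol per replicate. Glycam1, Chst4 and Madcam1 peak in tomato- VEC replicate 1 (628, 73.8 and 6.35 CPM), while Selp lies between 998.2 and 1488 CPM in all 3 tomato- libraries.

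The other sialomucins behaved differently. Cd34, a stem cell and endothelial surface protein, had 2287, 2638 and 3341 CPM in tomato+ VEC and 3279, 2820 and 2929 CPM in tomato- VEC. The groups overlapped, with a log2 fold change of -0.13 ± 0.85 (SE; adjusted p = 0.995 in edgeR). This error is wide enough to hold differences of either sign. It was estimated over all 4 groups, including epithelial libraries at 0.771 to 79.5 CPM, and is not the spread within VEC. With only the 6 endothelial libraries the log2 fold change was -0.115 (adjusted p = 0.911 in edgeR). It turned to 0.03 without tomato+ VEC replicate 1. Podxl, encoding podocalyxin, had 665, 346 and 192 CPM in tomato+ VEC and 52.2, 103.5 and 85.1 CPM in tomato- VEC. Each tomato+ library lay above each tomato- library, while the log2 fold change of 2.32 ± 1.08 (SE) did not pass (adjusted p = 0.314 in edgeR). Bst1 encodes CD157, an ectoenzyme anchored in the membrane that also binds integrins. Its levels were 0.104, 20.7 and 7.61 CPM in tomato+ VEC and 146.1, 207.8 and 164.5 CPM in tomato- VEC, again with no overlap. The log2 fold change of -4.20 ± 1.19 (SE) missed the threshold in edgeR (adjusted p = 0.102) and passed with DESeq2 (adjusted p = 0.00461) and limma voom (adjusted p = 0.0129). Under the other 17 of 19 alternatives Bst1 did not pass (adjusted p up to 0.197 in edgeR). Its paralog and genomic neighbour Cd38 had 986.2 ± 213.3 CPM in tomato+ VEC and 499.3 ± 110.9 CPM in tomato- VEC (SD, n = 3 each; adjusted p = 0.741 in edgeR).

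**Figure D4:**
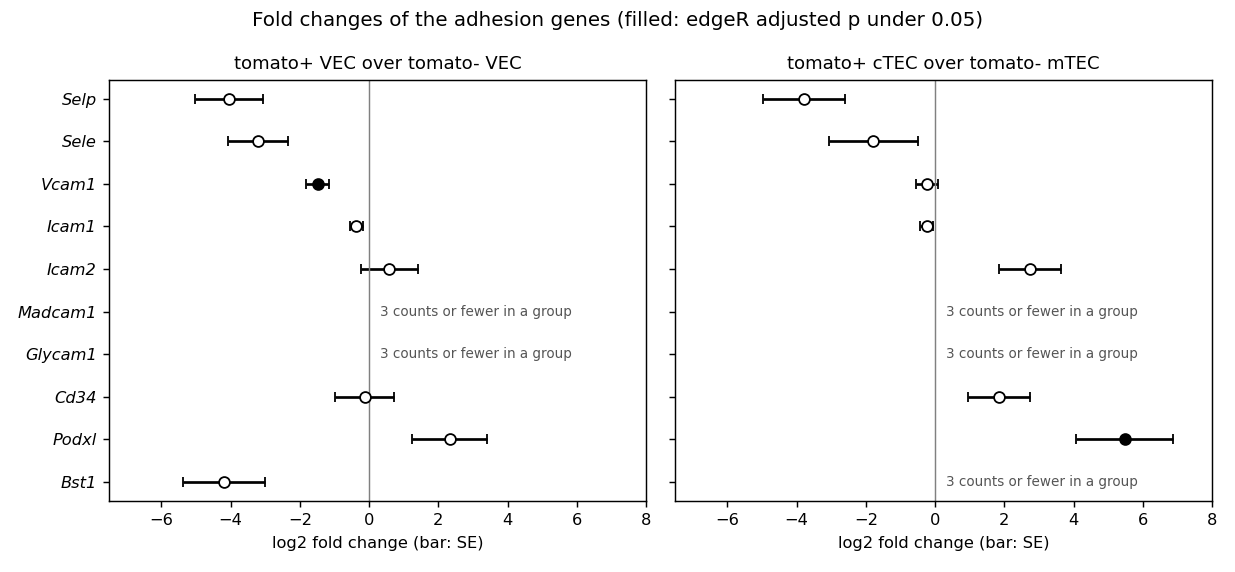
Log2 fold changes with their SE for the 10 genes in tomato+ against tomato- VEC and in tomato+ cTEC against tomato- mTEC, from edgeR; filled points pass the adjusted p of 0.05, and genes with 3 counts or fewer in a group have no point. Vcam1 (-1.48) is filled in the endothelium and Podxl (5.47) in the epithelium.

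In the epithelium, where the reporter and the gate change together, Madcam1 and Bst1 were lower in tomato+ cTEC than in tomato- mTEC and Podxl was higher. These were 3 of the 10 members in edgeR (1 higher, 2 lower, 7 not passed), beside 7.83% of all tested genes (2.73% higher, 5.10% lower). The groups did not overlap for Madcam1 and Bst1, both lower, against 20.3% of all genes lower and 18.7% higher (39.0% in either direction), and the median log2 fold change was -0.84 over the 10 and 0.02 over all genes. At an unadjusted p under 0.05 there were 5 members, against 20.4% of all genes.

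Madcam1 had no count in the 3 cTEC libraries, against 1136, 399 and 140 counts in mTEC (109.5, 46.4 and 11.2 CPM). The mTEC libraries differed 9.76-fold among themselves, and each exceeded every other library of the series. The level in cTEC was at least 580-fold lower, taking a floor of 3 counts over the group, with an adjusted p of 0.0221 in edgeR. The gene passed the low-count filter through mTEC alone. Leaving out any cTEC library, or mTEC replicate 1 or 2, ended the call (adjusted p up to 0.0747). The bound was 278-fold without mTEC replicate 1, 881-fold without mTEC replicate 3 and 375-fold to 399-fold without a cTEC library.

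Bst1 had 0, 0 and 0.260 CPM in cTEC and 15.3, 4.19 and 6.49 CPM in mTEC, without overlap. The ratio of 3 to 276 counts was 95.5-fold lower in cTEC (95% counting interval 32.4 to 466), with an adjusted p of 0.0242 in edgeR. It was lost without cTEC replicate 1 (adjusted p = 0.0987) or 2 (0.0868), or without mTEC replicate 1 (0.0738), which gave 60.4-fold. Without cTEC replicate 3, which held the 3 counts, it was at least 61.8-fold on the floor of 3 counts. Leukocyte and myeloid markers (6 of 6 with counts in both) summed to 13.4 to 179.6 CPM in cTEC and 397.0 to 447.5 in mTEC. Lyz2 made up most of the mTEC sums, at 392.8, 315.1 and 350.2 CPM. Lyz2 and Coro1a did not overlap between the groups, while Ptprc, Cd68, Itgam and Cd14 did. Mesenchymal and pericyte markers (8 of 8 with counts in both) summed to 178.2 to 359.7 CPM in cTEC, against 492.0 to 777.4 in mTEC. Rgs5 and Acta2 made up most of these mTEC sums. Acta2 overlapped between the groups, as did Pdgfra, Col1a1 and Cspg4, whose means were higher in cTEC. Col3a1 was higher in cTEC without overlap, with 72.1, 47.4 and 14.4 CPM in cTEC and 2.12, 2.79 and 9.86 CPM in mTEC. Platelet markers summed to 1.38 to 1.73 CPM in cTEC (3 of 5 with counts, Ppbp and Gp9 at 0), against 4.92 to 73.0 in mTEC (5 of 5). Their part in the Madcam1 and Bst1 values was not tested.

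Podxl had 5.87, 39.2 and 0.173 CPM in cTEC and 0.0964, 0.698 and 0.241 CPM in mTEC. Its libraries overlapped, since cTEC replicate 3 lay below 2 mTEC libraries. The log2 fold change was 5.47 ± 1.39 (SE, adjusted p = 0.0333 in edgeR). Without cTEC replicate 2, the library with the most endothelial markers, the adjusted p was 0.147 and the log2 fold change 3.12. With only the 6 epithelial libraries it did not pass the low-count filter. The call was also lost with limma voom (adjusted p = 0.415), without cTEC replicate 1 (0.0571) and without any of the mTEC libraries (up to 0.122). The log2 fold change was 6.10 without cTEC replicate 3 and 6.37 without mTEC replicate 2.

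That cTEC library also held the highest epithelial level of other vessel genes of the list. Icam2 had 2.29, 60.8 and 4.68 CPM in cTEC and 3.66, 3.60 and 2.81 CPM in mTEC (log2 2.75 ± 0.90 SE, adjusted p = 0.0896 in edgeR), and without cTEC replicate 2 the log2 fold change was 0.05. It passed without cTEC replicate 1 (adjusted p = 0.0315) or 3 (0.0490), but not under the other 16 of 18 alternatives. Cd34 had 48.5, 79.5 and 8.14 CPM in cTEC and 0.771, 28.0 and 9.14 CPM in mTEC (log2 1.85 ± 0.89 SE, adjusted p = 0.274 in edgeR). In cTEC replicate 2 these levels were 16.3% of the VEC mean for Podxl, 9.85% for Icam2 and 2.76% for Cd34. The summed endothelial markers were at 4.88%, Selp at 0.0295% and Sele at 0.110%. That VEC mean pools tomato+ and tomato- VEC, which averaged 401.1 and 80.25 CPM for Podxl and 76.0 and 1252 CPM for Selp. These percents therefore depend on the endothelial group taken as reference. Podxl, Icam2, Cd34 and the endothelial markers were thus highest in the same cTEC library, and the markers' part in these values was not tested.

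**Figure D5:**
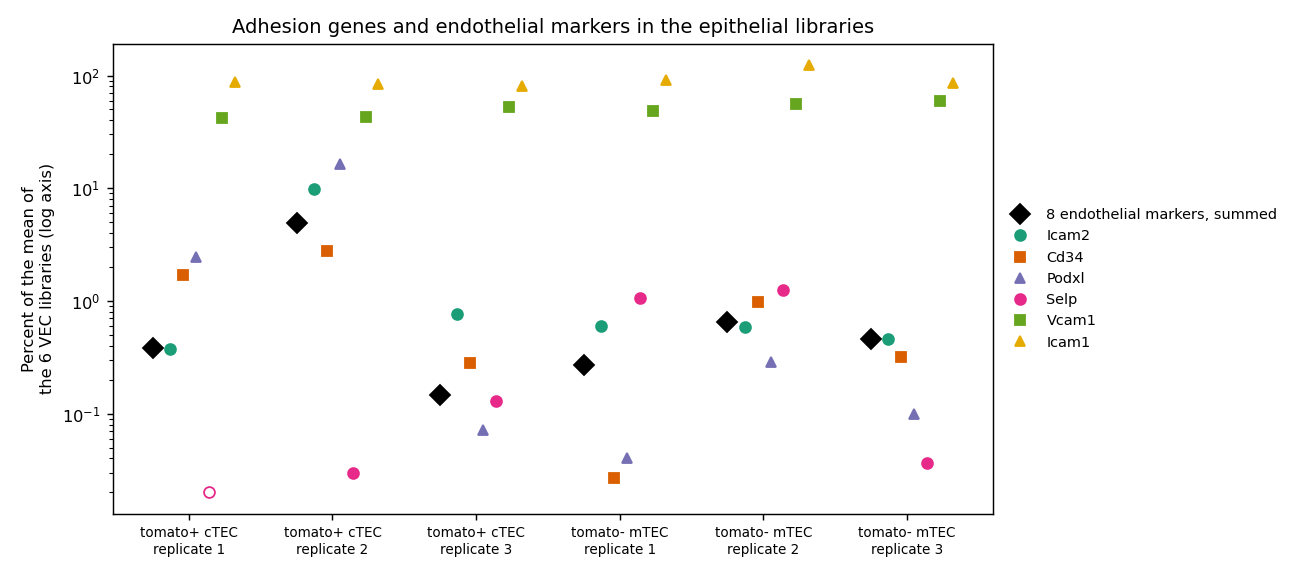
Levels of 6 adhesion genes and of 8 summed endothelial markers in the 6 epithelial libraries, as a percent of the mean of the 6 VEC libraries, on a log axis; the open circle is Selp at 0 in cTEC replicate 1, drawn at the foot of the axis. In cTEC replicate 2, Podxl (16.3%), Icam2 (9.85%) and the markers (4.88%) stand above the other epithelial libraries, while Vcam1 and Icam1 hold similar levels in all 6.

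The remaining members did not pass in the epithelium. Selp had 0, 0.196 and 0.866 CPM in cTEC and 7.04, 8.37 and 0.241 CPM in mTEC (log2 -3.78 ± 1.17 SE, adjusted p = 0.0727 in edgeR). It passed with DESeq2 (adjusted p = 0.00316), with no low-count filter (0.0452) and without mTEC replicate 3 (0.0240), but not under the other 15 of 18 alternatives. Sele had 5 counts in cTEC, against 16 in mTEC (adjusted p = 0.522 in edgeR), and Glycam1 had 2 counts in cTEC and 6 in mTEC (adjusted p = 0.833), both too low to rank. Vcam1, by contrast, was abundant in both, with 432, 434 and 541 CPM in cTEC and 493, 566 and 601 CPM in mTEC (log2 -0.24 ± 0.33 SE, adjusted p = 0.797 in edgeR). Icam1 was as abundant, with 434.7, 411 and 400 CPM in cTEC and 450.9, 605 and 419.8 CPM in mTEC (log2 -0.24 ± 0.20 SE, adjusted p = 0.580 in edgeR).

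Set against the epithelium, the mean of both endothelial groups was higher for 7 of the 10 members, lower for 0, and not past the threshold for Icam1, Madcam1 and Glycam1. Of all tested genes 36.3% passed, 14.4% higher and 21.8% lower. The gates themselves were drawn on endothelial and epithelial surface proteins. For Selp, Sele, Icam2, Cd34 and Podxl no endothelial library overlapped an epithelial one, against 7.49% of all genes higher without overlap, 9.49% lower and 17.0% in either direction. The log2 fold changes of these 5 were 7.79 ± 0.87 for Selp, 8.42 ± 0.84 for Sele, 6.12 ± 0.72 for Icam2, 6.91 ± 0.78 for Cd34 and 6.31 ± 0.96 for Podxl (SE), with adjusted p-values of at most 0.000292 in edgeR. Bst1 averaged 91.1 ± 91.9 CPM in VEC and 4.38 ± 6.00 CPM in the epithelium (SD, n = 6 each; adjusted p = 0.000879 in edgeR), though tomato+ VEC and mTEC overlapped. Vcam1 was 0.82 ± 0.23 higher on the log2 scale (SE; adjusted p = 0.0153 in edgeR) with overlapping libraries, since its 3 highest values were those of tomato- VEC while tomato+ VEC, cTEC and mTEC overlapped. The median over all genes was -0.18 on this scale.

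Icam1 was the most even of the list. Over all 12 libraries it ran between 389.6 and 605 CPM, a coefficient of variation of 16.6%. Of the 2118 genes with a mean of at least 100 CPM, 5.38% had a lower one, and the median was 41.2%. Its endothelial mean of 491.4 ± 82.4 CPM and epithelial mean of 453.6 ± 76.3 CPM (SD, n = 6 each) gave a log2 fold change of 0.11 ± 0.14 (SE, adjusted p = 0.592 in edgeR), which turned to -0.03 under relative log expression scaling and with DESeq2. Icam5, which lies next to it but for Icam4, stood at 7.09 ± 2.14 CPM in mTEC.

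Ordered by mean level, neighbouring groups separated only in part. Selp and Sele ran in the order tomato- VEC, tomato+ VEC, mTEC, cTEC, and all but the last neighbours were free of overlap. Icam2 and Podxl ran in the order tomato+ VEC, tomato- VEC, cTEC, mTEC, again with overlap between the last pair alone. Bst1 ran in the order tomato- VEC, tomato+ VEC, mTEC, cTEC, and tomato+ VEC overlapped mTEC. For Vcam1 the first group, tomato- VEC, stood clear of the other 3, for Cd34 the 2 endothelial groups stood clear of the 2 epithelial ones, and for Icam1 every pair of neighbours overlapped.

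The reporter contrast in VEC was also set against that of tomato+ cTEC to tomato- mTEC, as an interaction in the same fit. In edgeR 0 of the 10 members passed, beside 3.08% of all tested genes, 1.54% with a positive and 1.54% with a negative difference. At an unadjusted p under 0.05 there were 2, Vcam1 (log2 difference -1.24 ± 0.46 SE, adjusted p = 0.177 in edgeR) and Glycam1 (adjusted p = 0.260). DESeq2 called 1, Glycam1 (adjusted p = 0.0205), and limma voom 0. A difference of these members between the 2 contrasts was not shown at this depth and spread. The epithelial contrast changes the reporter and the gate together, so the interaction does not isolate the reporter.

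Other genes of the adhesion steps were read from 6 lists. Of all tested genes, 0.568% were higher and 1.08% lower in tomato+ VEC, and 2.73% and 5.10% in cTEC against mTEC. In VEC against the epithelium these shares were 14.4% and 21.8%. Of 14 tested further adhesion molecules, 1 was higher and 2 were lower in tomato+ VEC. Cd44, the hyaluronan receptor, had 13.9, 7.98 and 43.2 CPM in tomato+ VEC and 0.223, 0 and 1.01 CPM in tomato- VEC (log2 5.70 ± 0.88 SE, adjusted p = 0.00752 in edgeR), without overlap. Ncam1, the neural cell adhesion molecule, averaged 0.210 ± 0.276 CPM in tomato+ VEC, against 13.3 ± 9.07 in tomato- VEC (SD, n = 3 each; log2 -5.97 ± 1.18 SE, adjusted p = 0.0250 in edgeR). Alcam, an activated leukocyte adhesion molecule, had 1 count in tomato+ VEC, against 216 in tomato- VEC, 203 of them in replicate 1 (adjusted p = 0.0458 in edgeR). In cTEC against mTEC, 0 of the 14 were higher and 2 lower: Ncam1 with 3 against 2047 counts (adjusted p = 0.00192) and the junction protein gene F11r (log2 -1.10 ± 0.25 SE, adjusted p = 0.0205 in edgeR). Endothelium against epithelium had 7 of the 14 higher, the endothelial junction genes Pecam1, Cdh5 and Esam among them, and 2 lower, Alcam and Cd44. Pecam1 encodes CD31, on which the gates were drawn, so its direction was set by the sort. The medians of this list were -0.08, 0.31 and 1.38 in the 3 comparisons.

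Of 9 tested integrins and selectin ligands, the counter-receptors on leukocytes, 0 passed in the endothelial comparison. In cTEC against mTEC 2 were higher. Itgb1, the chain shared by VLA-4 and other integrins, averaged 297.0 ± 29.3 CPM in cTEC, against 146.6 ± 24.1 in mTEC (SD, n = 3 each; log2 1.02 ± 0.22 SE, adjusted p = 0.0158 in edgeR). Itgb2, the beta chain of LFA-1, had 598 counts in cTEC and 0 in each other group (adjusted p = 0.0281 in edgeR). It passed the low-count filter through cTEC alone. Thymocyte markers summed to 52.4 to 90.3 CPM in cTEC (8 of 8 with counts), against 16.6 to 37.0 in mTEC (7 of 8, Cd8a at 0). Cd3e and Cd8a did not overlap between the groups, while Cd3g, Cd4, Cd8b1, Ptcra, Rag1 and Lck did. Ptcra was at most 0.196 CPM in cTEC and reached 5.40 CPM in mTEC. The part of these markers in the Itgb2 value was not tested. Selplg, encoding PSGL-1, was scarce throughout, with 6 counts in tomato+ VEC, against 3 in tomato- VEC, and 80 in cTEC, against 28 in mTEC. In endothelium against epithelium 2 of the 9 were higher and 4 lower, beside 14.4% and 21.8% of all tested genes. The median log2 values in the 3 comparisons were 0.09, 1.02 and -2.95.

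Of 4 tested further sialomucins, 0 passed in the endothelium. Cd164 was higher in cTEC (log2 0.99 ± 0.22 SE, adjusted p = 0.0194 in edgeR) and the epithelial mucin gene Muc1 was lower (log2 -5.69 ± 1.58 SE, adjusted p = 0.0469). Emcn (endomucin) and Cd300lg, both endothelial, were higher in VEC than in the epithelium (adjusted p at most 0.000466 in edgeR), and Muc1 lower (0.00691). Of 7 tested sugar enzymes, Gcnt1 alone passed in tomato+ VEC, as given above. In cTEC against mTEC, St3gal6, a sialyltransferase of selectin ligands, averaged 148.0 ± 9.82 CPM in cTEC, against 19.9 ± 3.09 in mTEC (SD, n = 3 each; log2 2.90 ± 0.25 SE, adjusted p = 0.000102 in edgeR), and Chst2, a sulfotransferase, was lower (log2 -4.06 ± 1.05 SE, adjusted p = 0.0361). St3gal6 had 293.1 ± 79.5 CPM in tomato+ VEC, against 561.3 ± 54.1 in tomato- VEC (adjusted p = 0.0698 in edgeR), and its interaction passed (adjusted p = 0.000277). In VEC against the epithelium 5 of the 7 were higher and 0 lower, beside 14.4% and 21.8% of all tested genes. The medians in the 3 comparisons were 0.13, 1.94 and 4.02 for the sialomucins and -0.99, -0.94 and 1.52 for the enzymes.

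Of 12 tested genes of a list of regulators, 0 passed in tomato+ against tomato- VEC. They were receptors and factors of the lymphotoxin, TNF and NF-kB routes, known to drive several of these molecules, and also Nr2f2 and Irf1. Nr2f2, a venous transcription factor, averaged 99.0 ± 62.6 CPM in tomato+ VEC, against 487.0 ± 50.7 in tomato- VEC (SD, n = 3 each; log2 -2.30 ± 0.61 SE, adjusted p = 0.0842 in edgeR), and its interaction passed (log2 difference -4.53 ± 0.88 SE, adjusted p = 0.0202). In cTEC against mTEC the interferon-responsive factor gene Irf1 was higher (log2 1.35 ± 0.33 SE, adjusted p = 0.0291 in edgeR), and Nfkb2 was lower, at 20.4 ± 6.43 CPM in cTEC, against 69.3 ± 3.12 in mTEC (SD, n = 3 each; log2 -1.76 ± 0.42 SE, adjusted p = 0.0269). In VEC against the epithelium 7 were higher, Nr2f2 and Irf1 among them, and 1, Nfkb1, lower, beside 14.4% and 21.8% of all tested genes. The median log2 values were -0.32, -0.30 and 0.78. Cd38, the only entry of its list, passed in that last comparison (log2 7.28 ± 1.10 SE, adjusted p = 0.000276 in edgeR).

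The genes whose pattern over the 12 libraries was most like each member were sought by Pearson's r of log2(CPM + 1) among 10780 genes with a mean of at least 5 CPM. The libraries fall into 4 groups and share these, so r is a description. Selp had Bend4 (r = 0.968), Sele (0.968) and Pde7b (0.968) nearest, and Sele had Lrg1 (0.985), Tfpi2 (0.978) and Hsd3b7 (0.973). Icam2 had Rtp3 (0.995), Mef2c (0.995) and Jam2 (0.994), Cd34 had Sparcl1 (0.988), Meox2 (0.984) and Cd300lg (0.983), and Podxl had Cd36 (0.979), Slc9a3r2 (0.974) and Ltbp4 (0.972). Those of Vcam1 were Rcan1 (0.948), Ppp1r3c (0.909) and Serpina1e (0.907), and those of Bst1 were Ssr4 (0.973), Tcf7l1 (0.949) and Ltc4s (0.944). Icam1, with little spread to follow, had Rap2a (0.887), Stat5b (0.859) and Brms1 (0.855). Glycam1, led by 1 library, had Pkm (0.913), Ccbp2 (0.862) and Nxph1 (0.860), and Madcam1, at 6.35 CPM or less in 9 libraries, had Rpl7a (0.959), Mpo (0.955) and Ndufc2 (0.952).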

How the data were processed

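Poly(A) RNA of sorted thymic stromal cells was made into libraries with a SMARTer kit for small inputs, per the labels' protocols. TopHat2 2.0.10 and mm9 are named in the submitters' processing notes, and the sources used here do not give the read counter or its use of strand. Per the file headers, the deposited table holds raw counts and RPKM values for each gene symbol. All 180417 RPKM values tested matched the count divided by column total and 1 gene length (relative tolerance 1e-06). Of 23306 symbols, 1704 had no count.

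Counts of all 12 libraries were fitted with edgeR 4.0.16 in R 4.3.3 (filterByExpr with a minimum count of 10, TMM, a term per group, 8 residual degrees of freedom). Calls are at a Benjamini-Hochberg adjusted p under 0.05 over all 14792 tested genes. The SE is the log2 fold change over the square root of F. It rests on a spread per gene estimated over all 4 groups. In the endothelial comparison it thus also holds the spread of the epithelial libraries, and the reverse. A group with 0 counts is set against a floor of 3 counts, and 1 to 3 counts get a ratio with a 95% counting interval. RPKM were used to compare genes. Replicate numbers were not used to pair libraries in the main fit. Alternatives were DESeq2 1.42.0, limma voom 3.58.1, relative log expression scaling, other filters, only the 6 libraries compared, a replicate block and leaving out each library. The fit was tested on simulated data.

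Named were the 10 members, the 3 genes most like each (symbols of unnamed gene models and of antigen receptor segments left out), list genes that passed, and the sorting genes. Chst4, Fut7, Selplg, Icam5 and the values of Nr2f2, St3gal6 and Cd38 that did not pass were picked with their values known. The members and lists were chosen with earlier results of these data known. Some genes of the lists are not reported here.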

Additional observations from a re-analysis of the deposited data

How the results depend on the processing

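Over the 10 genes and 4 comparisons, 727 alternative values were computed: 663 kept direction and side of the threshold, 33 kept direction and lost a call, 20 kept direction and gained one, and 11 changed sign. The cause of the changes was not tested. Glycam1 does not reach 5 CPM in 3 libraries and so has no value under that filter. In tomato+ against tomato- VEC the genes called were 244 with edgeR, 1253 with DESeq2, 601 with limma voom and 112 with only the 6 libraries, and 174 to 394 on leaving out a library. The members called there were 2, and 5 with DESeq2, 5 with limma voom, 1 with relative log expression scaling, 1 with at least 5 CPM in 3 libraries, 1 with only the 6 libraries, and 0 to 2 on leaving out a library. In cTEC against mTEC the genes called were 1158, and 1973 with DESeq2, 2219 with limma voom, 2487 with only the 6 libraries, and 428 to 1193 on leaving out a library, with 3 members, and 0 to 3 on leaving out a library. In VEC against epithelium 5363 genes were called (4568 to 5501 on leaving out a library), with 7 members under each leave-out. Of the interaction 456 genes were called, and 1418 with DESeq2, 1309 with limma voom and 159 to 491 on leaving out a library, with 0 members under each leave-out and 1 with DESeq2.

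Sign changes were these. Cd34 in tomato+ against tomato- VEC turned to 0.027 without tomato+ VEC replicate 1 (leave-outs from -0.238). Sele in cTEC against mTEC turned to 1.58 without mTEC replicate 2 (leave-outs from -2.37). Icam1 in VEC against epithelium turned to -0.026 with DESeq2 and with relative log expression scaling. In the interaction, Selp turned to 0.21 without tomato+ VEC replicate 1, 0.07 without replicate 2, 1.51 without cTEC replicate 3 and 0.32 without mTEC replicate 3 (leave-outs from -1.27), Icam1 to 0.035 without tomato+ VEC replicate 2 or 3 (from -0.298), and Icam2 to 0.59 without cTEC replicate 2 (from -2.68). None of these was past the threshold. The median of all genes in VEC against epithelium was -0.18, -0.31 with relative log expression scaling and -0.45 with limma voom.

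Replicate numbers are shared between groups. The deviations of same-numbered libraries correlated at -0.014 to 0.069 over 18 pairs, against -0.051 to 0.025 over 36 pairs with different numbers. Any deviation shared by replicate number was thus weak. A fit with the replicate number as a block called 178 genes and 2 members in VEC, 814 genes in cTEC against mTEC, 4928 genes and 8 members in VEC against epithelium, and 269 genes and 1 member in the interaction. With the block, Podxl in cTEC against mTEC had an adjusted p of 0.0671, and Glycam1 passed in VEC against epithelium (adjusted p = 0.0203) and in the interaction (0.0348). It changed no other call of a member in these comparisons.

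With 3 libraries a group and a biological coefficient of variation of 0.790, changes of members such as Selp, with groups far apart, can miss the threshold, and genes with few counts, such as Sele and Glycam1 in the epithelium, cannot be ranked.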
